A study of Homo sapiens with 6 samples.

Results

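The human mitochondrial genome carries 37 genes, and all of them had a row of counts in libraries of SW480 cells, an established line from a human colorectal adenocarcinoma. They were chosen as every gene of the count table whose symbol starts with MT and a hyphen, which gave 37 of 56303 genes: 13 mRNAs, 22 tRNAs and 2 rRNAs. On the chrM sequence of GRCh38, which is 16569 bases long, 28 of them lie on the plus strand and 9 on the minus strand (MT-ND6 and 8 tRNAs). The study set 3 libraries of cells that carried a hairpin against MORC2 (shMORC2, genotype labelled MORC2 knockdown) beside 3 libraries of cells that carried a nonsilencing hairpin (shCtrl, genotype labelled WT). Both hairpins were brought in by lentivirus, and per the study's methods the cells were selected with puromycin as stable clonal lines. Libraries were made from total RNA with a stranded mRNA kit that adds molecular identifiers. mRNA libraries favour RNAs with a poly(A) tail, so a level given here is what the libraries held and not the total amount of an RNA without a tail.

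Mitochondrial DNA is copied into long transcripts that run along either strand, and the RNA polymerase, its factors and the enzymes that cut and modify these RNAs are all encoded in the nucleus. The tRNAs lie between most of the longer genes, so that excising them releases the mRNAs and rRNAs. A poly(A) polymerase then adds short tails to most of these released RNAs. The mRNAs encode subunits of respiratory complexes I, III and IV and of the ATP synthase, while the rRNAs and tRNAs serve the mitochondrial ribosome that translates them.

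Several of the mRNAs end within their last codon, and the tail that is added after cutting completes the stop. The last 21 bases of each mRNA are shown because the members differ in this feature, with the bases of the last codon in capitals. They were read 5′ to 3′ on the gene's own strand from GRCh38.
MT-ND1 (chrM:4242-4262, plus strand): cagcattccccctcaaaccTA
MT-ND2 (chrM:5491-5511, plus strand): cttttatactaataatcttaT
MT-CO1 (chrM:7425-7445, plus strand): cccgtatacataaaatctAGA
MT-CO2 (chrM:8249-8269, plus strand): gggcccgtatttaccctaTAG
MT-ATP8 (chrM:8552-8572, plus strand): tcattgcccccacaatccTAG
MT-ATP6 (chrM:9187-9207, plus strand): tacctgcacgacaacacaTAA
MT-CO3 (chrM:9970-9990, plus strand): ccatctattgatgagggtctT
MT-ND3 (chrM:10384-10404, plus strand): aaggattagactgaaccgaaT
MT-ND4L (chrM:10746-10766, plus strand): ctaaacctactccaatgcTAA
MT-ND4 (chrM:12117-12137, plus strand): tcattaccgggttttcctctT
MT-ND5 (chrM:14128-14148, plus strand): accctactcctaatcacaTAA
MT-ND6 (chrM:14149-14169, minus strand): gagattgctcgggggaatAGG
MT-CYB (chrM:15867-15887, plus strand): acaaaatactcaaatgggccT
In 6 of the 13 mRNAs (MT-ND1, MT-ND2, MT-CO3, MT-ND3, MT-ND4 and MT-CYB) only T or TA of the stop lies within the annotated gene. The other 7 genes hold a whole stop codon of the mitochondrial code. Among these 7, MT-ATP6 shares its last base with MT-CO3. If cutting leaves that base to MT-CO3, the stop of MT-ATP6 is incomplete as well.

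Members of the set also share bases, which limits how their reads can be divided. MT-ATP8 and MT-ATP6 overlap by 46 bases, the whole of which is shown with the start codon of MT-ATP6 and the stop codon of MT-ATP8 in capitals. MT-ND4L and MT-ND4 overlap by 7 bases, given in capitals.
MT-ATP8 and MT-ATP6 (chrM:8527-8572, plus strand): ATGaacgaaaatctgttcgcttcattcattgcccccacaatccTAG
MT-ND4L and MT-ND4 (chrM:10748-10778, plus strand): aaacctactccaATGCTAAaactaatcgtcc
MT-TI and MT-TQ share 3 bases on opposite strands, MT-TC and MT-TY share 1 base, and MT-ATP6 and MT-CO3 share 1 base. How the counting treated reads over shared bases, reads with several matches and strand was not given in the sources used here. Values of overlapping neighbours, of minus-strand genes and of genes with nuclear copies are uncertain to that extent.

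The 4 tRNAs with the largest log2 fold changes in either direction were those for phenylalanine, valine, glutamate and threonine. Their sequences are shown 5′ to 3′ as encoded, with the anticodon in capitals.
MT-TF (chrM:577-647, plus strand): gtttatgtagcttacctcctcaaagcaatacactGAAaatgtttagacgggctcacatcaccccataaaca
MT-TV (chrM:1602-1670, plus strand): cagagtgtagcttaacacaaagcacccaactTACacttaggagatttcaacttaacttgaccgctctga
MT-TE (chrM:14674-14742, minus strand): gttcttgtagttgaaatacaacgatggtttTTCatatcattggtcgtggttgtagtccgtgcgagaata
MT-TT (chrM:15888-15953, plus strand): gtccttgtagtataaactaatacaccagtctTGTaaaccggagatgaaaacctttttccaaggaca
The CCA end that carries the amino acid is added to each tRNA after cutting and is not part of these sequences.

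The libraries held 42092664 to 43434425 counts, of which the 37 genes took 7.04% to 8.90%. MORC2, the targeted gene, stood at 47.1 ± 1.47 CPM in shCtrl against 30.5 ± 4.07 CPM in shMORC2 (SD, n = 3 each; CPM relate counts to the TMM-scaled library total), a log2 fold change of -0.63 (SE 0.10, adjusted p 0.000216 by edgeR). Replicates of either group varied beyond sampling noise in every pair, and p-values measure the spread between 3 libraries of 1 cell population each, so the hairpin and the difference between populations cannot be told apart. Of 7 markers of colorectal epithelium all were tested, with a summed level of 18367 to 23754 CPM in shCtrl and 17721 to 24073 CPM in shMORC2. Most of this sum was KRT8 (15380 ± 2261 CPM in shCtrl against 15071 ± 2521 CPM in shMORC2) and KRT18 (5184 ± 777 CPM against 5379 ± 947 CPM). Of the 7, 2 (KRT20 and CDX2) were called higher. CDX2 overlapped between the groups and lost its call in 5 of 15 alternatives, among them the fits without shCtrl replicate 2, shCtrl replicate 3 or shMORC2 replicate 3 (edgeR adjusted p up to 0.0968). Of 8 markers of other cells 3 passed the filter on low counts (PECAM1, COL1A1 and ALB). The sum of the 8 ran from 25.6 to 28.3 CPM in shCtrl and from 28.4 to 30.5 CPM in shMORC2, higher with no overlap. Most of it was PECAM1 (15.03 ± 2.12 CPM in shCtrl against 18.3 ± 1.02 CPM in shMORC2) and COL1A1 (9.31 ± 1.07 CPM against 10.4 ± 0.0622 CPM). Neither was called (edgeR adjusted p 0.0519 and 0.287). PECAM1 was called higher with the replicate number as a block (edgeR adjusted p 0.00587). ALB was called lower, at 2.34 ± 0.579 CPM in shCtrl against 0.493 ± 0.202 CPM in shMORC2. Its log2 fold change was -2.23 (SE 0.30, adjusted p 8.27e-05 by edgeR), and the call held in the 13 alternatives that tested it. HBB was at 0 in all 6 libraries.

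Knockdown was compared with control to ask which mitochondrially encoded RNAs differed between the 2 cell populations. The set did not shift as a block: within 1 genome the level of MT-ND1 rose to 2.14 times the control level, while MT-RNR2, the large rRNA, fell to 0.553 of it. All 37 genes passed the filter on low counts, and 21 of them passed an adjusted p of 0.05 in edgeR's quasi-likelihood test, 10 higher and 11 lower in shMORC2. The background is wide, since 39.5% of the 21005 genes tested were called, 19.9% higher and 19.6% lower. The median log2 fold change was -0.05 over the 37 genes and -0.01 over all genes tested. In CPM, 9 members had all shMORC2 libraries above all shCtrl libraries, 13 had them all below and 15 overlapped, where 50.2% of all genes tested did not overlap (25.1% higher and 25.1% lower).

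By kind, 6 of 13 mRNAs were called (4 higher, 2 lower), both rRNAs (1 higher, 1 lower) and 13 of 22 tRNAs (5 higher, 8 lower). By strand, 17 of the 28 plus-strand genes were called (9 higher, 8 lower) and 4 of the 9 minus-strand genes (1 higher, 3 lower). With the replicate number as a block 28 members were called, 12 higher and 16 lower, against a background of 49.0%, and the 7 added were MT-CO2, MT-ND4, MT-ND6, MT-TA, MT-TN, MT-TS1 and MT-TH. Both counts moved with the fit. The count lower was 5 without shCtrl replicate 3, 6 without shMORC2 replicate 2 and 6 without shMORC2 replicate 3. In these fits the calls over all genes tested, in either direction, fell as well. They were 6707 of 21663, 6553 of 21635 and 6268 of 21598, beside 8301 of 21005 with all libraries kept. With library size counted as the 13 mitochondrial mRNAs, an alternative chosen after seeing the data, 13 members were called, 5 higher and 8 lower, against a background of 12.2% higher and 15.8% lower. MT-RNR1, MT-CO3, MT-TL1, MT-TW and MT-TK were then no longer called higher. Of the 21 genes, 13 kept their call in all 6 fits that left out a library, and 10 (MT-ND1, MT-ND3, MT-ND4L, MT-CYB, MT-RNR2, MT-TF, MT-TV, MT-TE, MT-TT and MT-TP) kept it in all 15 alternatives.

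**Figure D1:**
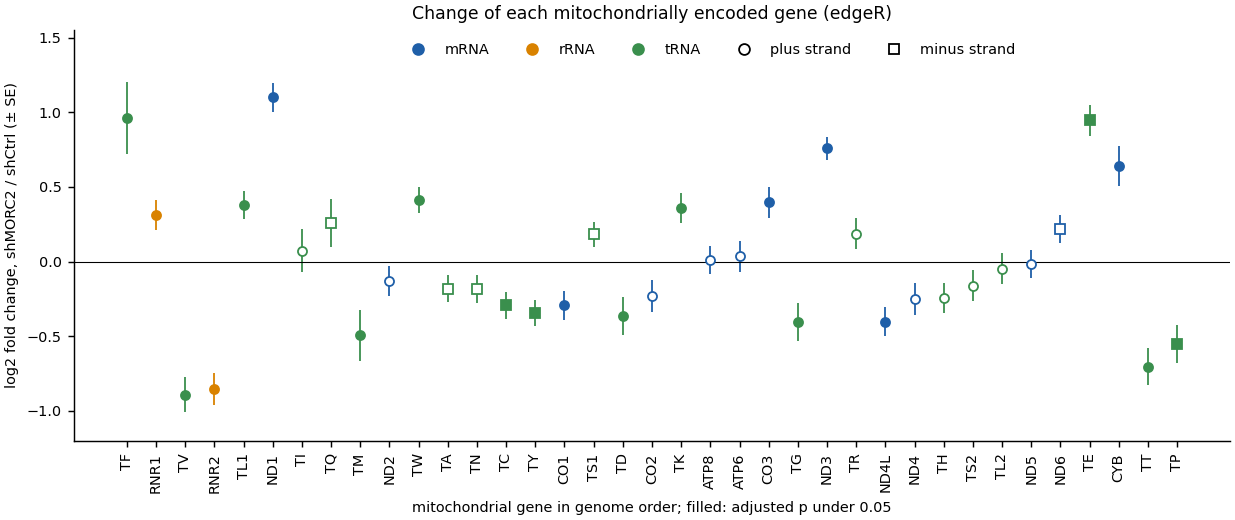
Log2 fold change (shMORC2 over shCtrl, edgeR) of each of the 37 mitochondrially encoded genes in the order of the genome, with bars of 1 SE. Colour gives the kind of RNA, squares mark the minus strand and filled symbols an adjusted p under 0.05; values run from -0.89 (MT-TV) to 1.10 (MT-ND1), and neighbours often lie on opposite sides of 0.

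Summed over kinds, the rRNAs and not the mRNAs separated the groups. The 37 genes together stood at 84536 ± 5689 CPM in shCtrl against 76859 ± 6315 CPM in shMORC2 (SD, n = 3), a log2 ratio of -0.14 with an exact permutation p of 0.3 (two-sided; 3 against 3 libraries cannot go below 0.1). The 13 mRNAs stood at 59943 ± 4473 CPM in shCtrl against 62464 ± 7208 CPM in shMORC2, a log2 ratio of 0.06 (exact permutation p 0.7) that became -0.04 without shMORC2 replicate 1. The 2 rRNAs together stood at 21121, 23529.7 and 24770.0 CPM in the shCtrl libraries and at 11589.8, 15017 and 12531 CPM in the shMORC2 libraries. Every shMORC2 library thus lay below every shCtrl library, with a log2 ratio of -0.83 and the smallest exact permutation p the design allows, 0.1. Most of this sum was MT-RNR2 (22780 ± 1828 CPM in shCtrl against 12598 ± 1707 CPM in shMORC2), while MT-RNR1 was higher in shMORC2. The 22 tRNAs overlapped at 1453 ± 157 CPM in shCtrl against 1349 ± 42.2 CPM in shMORC2 (log2 ratio -0.11, exact permutation p 0.5). In bulk libraries such as these, fewer cells of a kind and less RNA per cell cannot be told apart. The family held 39 such permutation tests of sums, ratios and shares, of which 22 reached the smallest p, and the smallest Benjamini-Hochberg adjusted value was 0.177.

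**Figure D2:**
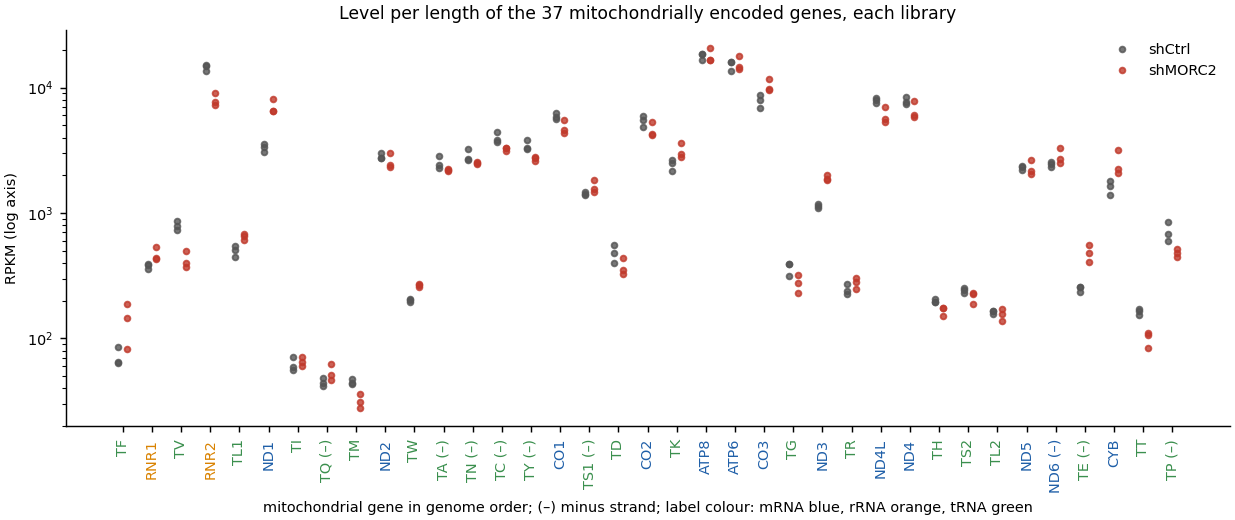
RPKM (counts scaled by gene length and library total, log axis) of the 37 genes in genome order, 1 point per library, grey for the 3 shCtrl and red for the 3 shMORC2 libraries. Minus-strand genes carry a dash; MT-ATP8 is the mRNA with the highest mean in both groups, and MT-RNR2 is lower and MT-ND1 higher in all 3 shMORC2 libraries.

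The ribosomal RNAs moved apart. MT-RNR2, the RNA of the large subunit of the mitochondrial ribosome (chrM:1671-3229, plus strand), stood at 20789.7, 23165 and 24385 CPM in the shCtrl libraries and at 11189, 14496 and 12109 CPM in the shMORC2 libraries. The groups did not overlap, and shMORC2 replicate 2 was the highest of the knockdown libraries. Its log2 fold change was -0.85 (SE 0.11, adjusted p 5.41e-05 by edgeR). MT-RNR1, the RNA of the small subunit, lies just upstream on the same strand (chrM:648-1601) and stood at 331, 365 and 385 CPM in the shCtrl libraries and at 401, 522 and 422 CPM in the shMORC2 libraries. It was higher in every shMORC2 library, least so in replicate 1, with a log2 fold change of 0.31 (SE 0.10, adjusted p 0.0235 by edgeR). This call was lost without shCtrl replicate 1 (adjusted p 0.0661), shCtrl replicate 2 (0.0599) or shMORC2 replicate 2 (0.144), and with library size counted as the 13 mRNAs (0.196).

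Within a library the ratio of MT-RNR1 to MT-RNR2 counts does not depend on scaling. It was 0.0159, 0.0157 and 0.0158 in the shCtrl libraries and 0.0358, 0.0360 and 0.0349 in the shMORC2 libraries (log2 ratio 1.17, exact permutation p 0.1, the smallest possible). The spread within either group was small beside the distance between them. Per length the rRNAs were far apart in level in these libraries, with 14626 ± 846 RPKM in shCtrl against 8039.8 ± 949 RPKM in shMORC2 for MT-RNR2 and 378 ± 20.1 RPKM in shCtrl against 467 ± 59.7 RPKM in shMORC2 for MT-RNR1. Per 100 counts of the 13 mRNAs, MT-RNR2 took 38.1 ± 3.28 in shCtrl against 20.5 ± 4.35 in shMORC2, and the groups did not overlap. MT-RNR1 took 0.602 ± 0.0487 in shCtrl against 0.727 ± 0.157 in shMORC2, and these groups overlapped. Both rRNAs to all 13 mRNAs gave a ratio of counts of 0.387 ± 0.0333 in shCtrl against 0.212 ± 0.0451 in shMORC2, lower with no overlap (exact permutation p 0.1). Most of these rRNA counts were those of MT-RNR2.

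Sequences like MT-RNR2 also lie in the nucleus. The 13 MTRNR2L genes, nuclear copies of the MT-RNR2 sequence, summed to 113 ± 7.64 CPM in shCtrl against 53.3 ± 2.32 CPM in shMORC2 and did not overlap, with a log2 ratio of -1.09. Most of that sum was MTRNR2L8 (53.4 ± 3.09 CPM in shCtrl against 25.4 ± 1.03 CPM in shMORC2) and MTRNR2L12 (57.9 ± 6.96 CPM against 27.1 ± 1.53 CPM). The 7 pseudogenes of a mitochondrial segment on chromosome 1 summed to 3261 ± 170.5 CPM in shCtrl against 3462 ± 547 CPM in shMORC2 and overlapped. Most of that sum was MTATP6P1, which overlapped at 2326 ± 136 CPM in shCtrl against 2414 ± 355 CPM in shMORC2. Of the 7 pseudogenes, 2 were called higher, MTND1P23 with a log2 fold change of 0.82 (SE 0.16, adjusted p 0.00128 by edgeR) and MTCO3P12 with 0.49 (SE 0.14, adjusted p 0.0112 by edgeR), and 1 was called lower, MTATP8P1 with -1.05 (SE 0.11, adjusted p 1.56e-05 by edgeR). The calls of MTND1P23 and MTATP8P1 held in all 15 alternatives, and that of MTCO3P12 in 11. Whether reads were exchanged between members and these copies was not tested. The 89 replication-dependent histone genes, whose mRNAs end without a poly(A) tail, summed to 151 ± 0.967 CPM in shCtrl against 109 ± 6.10 CPM in shMORC2 (log2 ratio -0.47), and whether the capture of tails differed between groups was not tested.

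Complex I, which takes electrons from NADH, has 7 mitochondrially encoded subunits, and the fitted log2 fold changes of their mRNAs ran from -0.40 to 1.10. MT-ND1 (chrM:3307-4262, plus strand) stood at 3134, 2903 and 3445 CPM in the shCtrl libraries and at 7570.4, 6397 and 6351 CPM in the shMORC2 libraries. All knockdown libraries lay far above the controls, replicate 1 highest, and the log2 fold change was 1.10 (SE 0.10, adjusted p 3.04e-06 by edgeR). MT-ND3 (chrM:10059-10404, plus strand) stood at 381, 376 and 415 CPM in the shCtrl libraries and at 621, 713 and 649.8 CPM in the shMORC2 libraries. Again the groups did not overlap, with a log2 fold change of 0.76 (SE 0.08, adjusted p 1.26e-05 by edgeR). MT-ND4L (chrM:10470-10766, plus strand) went the other way, at 2198, 2377 and 2521 CPM in the shCtrl libraries and at 2053, 1699 and 1613 CPM in the shMORC2 libraries. The highest knockdown library lay below the lowest control, and the log2 fold change was -0.40 (SE 0.10, adjusted p 0.00543 by edgeR).

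The remaining complex I mRNAs were not called. MT-ND2, next to MT-ND1 but for 3 tRNAs, stood at 2952 ± 246 CPM in shCtrl against 2693 ± 344 CPM in shMORC2 with a log2 fold change of -0.13 (SE 0.10, adjusted p 0.317 by edgeR), and was called lower without shMORC2 replicate 1 (adjusted p 0.0337). MT-ND4, which shares the transcript of MT-ND4L, stood at 10778 ± 911 CPM in shCtrl against 9051 ± 1289 CPM in shMORC2, with a log2 fold change of -0.25 (SE 0.11, adjusted p 0.0795 by edgeR) and an adjusted p of 0.00270 with the replicate block. MT-ND5 stood at 4173 ± 238 CPM in shCtrl against 4134 ± 471 CPM in shMORC2, and its log2 fold change of -0.01 (SE 0.09, adjusted p 0.924 by edgeR) changed sign in 3 of the fits that left out a library. MT-ND6, the mRNA on the minus strand (chrM:14149-14673), stood at 1269, 1225 and 1367 CPM in the shCtrl libraries and at 1697, 1442 and 1344 CPM in the shMORC2 libraries. Its groups overlapped through shMORC2 replicate 3, and the log2 fold change was 0.22 (SE 0.09, adjusted p 0.0816 by edgeR), with an edgeR adjusted p of 0.00577 under the replicate block.

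MT-CYB, the cytochrome b subunit of complex III (chrM:14747-15887, plus strand), stood at 1996, 1569 and 1923 CPM in the shCtrl libraries and at 3574, 2405 and 2586 CPM in the shMORC2 libraries. Replicate 1 was the highest of the knockdown libraries by a wide margin, and the lowest of them still lay above the highest control. The log2 fold change was 0.64 (SE 0.14, adjusted p 0.00226 by edgeR), and it was 0.45 without shMORC2 replicate 1, still called.

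The subunits of complex IV, cytochrome c oxidase, did not move together. MT-CO3 (chrM:9207-9990, plus strand) stood at 6734, 5327 and 6340.4 CPM in the shCtrl libraries and at 8943, 7777 and 7536 CPM in the shMORC2 libraries. The groups did not overlap, and the log2 fold change was 0.40 (SE 0.10, adjusted p 0.00798 by edgeR). With library size counted as the 13 mRNAs the call was lost (adjusted p 0.0847), and it held in the other 14 alternatives. MT-CO1 (chrM:5904-7445, plus strand), the catalytic subunit, stood at 8824, 8649 and 9978 CPM in the shCtrl libraries and at 8325, 7248 and 6841 CPM in the shMORC2 libraries. It was lower in every knockdown library, with a log2 fold change of -0.29 (SE 0.10, adjusted p 0.0285 by edgeR). That call was lost without shCtrl replicate 3 (adjusted p 0.127), without shMORC2 replicate 2 (0.108) or without shMORC2 replicate 3 (0.146). It was also lost with limma on log2(RPKM + 1) (0.0522) and on log2(RPKM + 0.1) (0.0533) and with library size counted as the 13 mRNAs (0.0753), so that 9 of 15 alternatives kept it. MT-CO2, which also binds copper, stood at 3703 ± 445 CPM in shCtrl against 3150.3 ± 383 CPM in shMORC2, overlapping, with a log2 fold change of -0.23 (SE 0.11, adjusted p 0.0994 by edgeR) and an adjusted p of 0.00306 with the replicate block.

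The overlapping pair of ATP synthase subunits showed no call. MT-ATP8 stood at 3699 ± 251 CPM in shCtrl against 3731 ± 386 CPM in shMORC2 and MT-ATP6 at 10320.5 ± 971 CPM in shCtrl against 10578 ± 1157 CPM in shMORC2. The log2 fold changes were 0.01 (SE 0.09, adjusted p 0.930 by edgeR) for MT-ATP8 and 0.04 (SE 0.10, adjusted p 0.807 by edgeR) for MT-ATP6, and both changed sign when shCtrl replicate 2 or shMORC2 replicate 1 was left out. MT-CO3, which starts on the last base of MT-ATP6, was called higher, and the ratio of MT-CO3 to MT-ATP6 counts per base was 0.516 ± 0.0332 in shCtrl against 0.665 ± 0.0104 in shMORC2 (exact permutation p 0.1).

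Shares of the 13 mRNAs need no scaling to the nuclear genes, and 11 of them did not overlap between the groups, 5 higher and 6 lower. These 11 include MT-ND2, MT-CO2, MT-ND4, MT-ND5 and MT-ND6, whose levels in CPM overlapped and were not called. MT-ND1 took 5.28, 5.21 and 5.33% of the mRNA counts in the shCtrl libraries and 10.7, 10.8 and 11.1% in the shMORC2 libraries. The share was more uniform within each group than the level in CPM, and the distance between the groups was wide beside the spread. Shares of MT-CO3 (10.2 ± 0.966% in shCtrl against 12.97 ± 0.277% in shMORC2), MT-CYB (3.05 ± 0.282% in shCtrl against 4.54 ± 0.499% in shMORC2), MT-ND3 (0.653 ± 0.0187% in shCtrl against 1.07 ± 0.171% in shMORC2) and MT-ND6 (2.15 ± 0.0422% in shCtrl against 2.39 ± 0.0467% in shMORC2) were also higher with no overlap. Those of MT-ND4 (17.99 ± 1.08% in shCtrl against 14.5 ± 0.378% in shMORC2), MT-CO1 (15.3 ± 0.356% in shCtrl against 11.97 ± 0.233% in shMORC2), MT-ND4L, MT-CO2, MT-ND2 and MT-ND5 were lower with no overlap. The shares of MT-ATP6 and MT-ATP8 overlapped. Each share that did not overlap reached an exact permutation p of 0.1. Since shares add up to a fixed total they are not independent of each other, and the rise of MT-ND1 by itself lowers the other shares. No background over all genes was computed for shares, and in CPM 50.2% of all genes tested did not overlap.

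**Figure D3:**
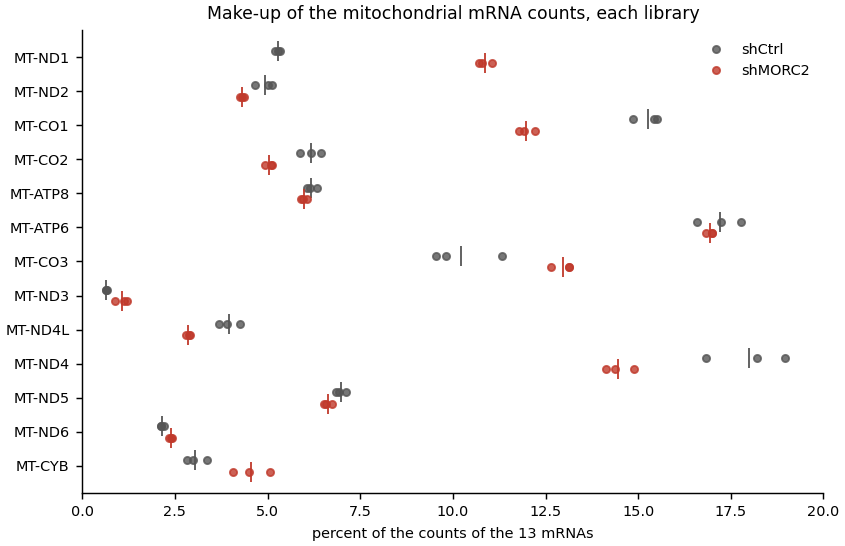
Percent of the summed counts of the 13 mitochondrial mRNAs taken by each mRNA, 1 point per library, with vertical bars at the group means (grey shCtrl, red shMORC2). MT-ND1 goes from a mean of 5.27% to 10.9%, MT-ND4 from 17.99% to 14.5% and MT-CO1 from 15.3% to 11.97%.

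Per length, MT-ATP8 and MT-ATP6 led the mRNAs in both groups, with 17902 ± 1114 and 15180.2 ± 1329 RPKM in shCtrl. MT-ND4L (7973 ± 357 RPKM), MT-CO3 (7844 ± 993 RPKM) and MT-ND4 (7829 ± 472 RPKM) followed and did not separate from each other. Below them came MT-CO1, MT-CO2, MT-ND1, MT-ND2, MT-ND6, MT-ND5, MT-CYB and, lowest at 1131 ± 40.5 RPKM, MT-ND3. Of the 12 neighbours in this order 8 had ranges that did not overlap in shCtrl, and 4 of 12 did so in the order of shMORC2. MT-ND1 moved from rank 8 (3311 ± 239.9 RPKM) to rank 4 (7070.4 ± 881 RPKM) and MT-ND4L from rank 3 to rank 6 (6011 ± 918 RPKM), though in shMORC2 neither separated from MT-ND4 between them. MT-ND3 stayed lowest at 1903 ± 102 RPKM.

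Pairs of genes from the same primary transcript were set side by side as ratios of counts per base. MT-ND1 to MT-ND2 was 1.23, 1.11 and 1.16 in the shCtrl libraries and 2.67, 2.73 and 2.83 in the shMORC2 libraries, with no overlap (exact permutation p 0.1). MT-ND4L to MT-ND4, which can stay joined on 1 mRNA, was 1.02 ± 0.0252 in shCtrl against 0.918 ± 0.0107 in shMORC2, lower with no overlap at the same p. MT-ATP8 to MT-ATP6, also joined on 1 mRNA, was 1.18 ± 0.0323 in shCtrl against 1.16 ± 0.0110 in shMORC2 and overlapped. MT-CO1 to MT-CO2 was 1.10 ± 0.0611 in shCtrl against 1.05 ± 0.0406 in shMORC2 and overlapped as well. The ratio between neighbours on opposite strands, MT-ND6 to MT-ND5, was 1.06, 1.07 and 1.06 in the shCtrl libraries and 1.26, 1.25 and 1.24 in the shMORC2 libraries. It was almost the same in the 3 controls and higher in every knockdown library (exact permutation p 0.1).

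**Figure D4:**
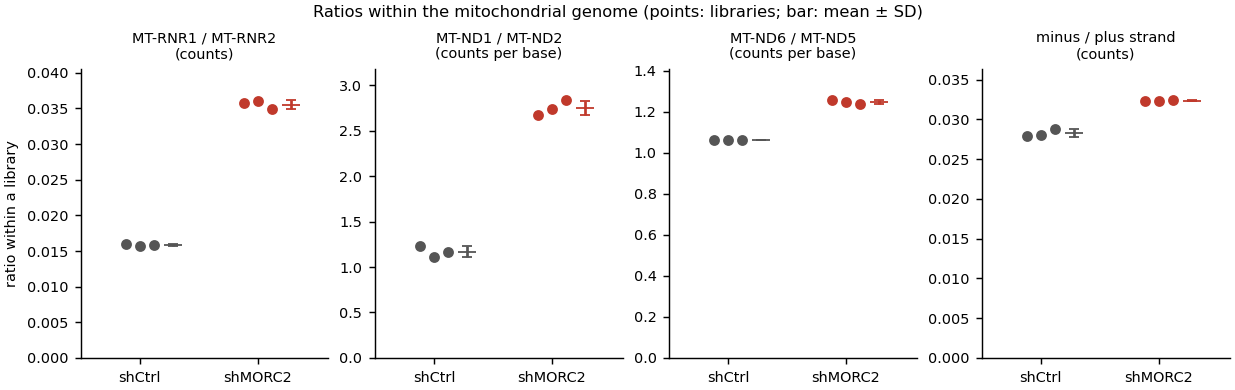
Ratios within each library, 1 point per library and a bar at the mean with its SD: MT-RNR1 to MT-RNR2 (counts), MT-ND1 to MT-ND2 and MT-ND6 to MT-ND5 (counts per base), and the 9 minus-strand to the 28 plus-strand genes (counts). All 4 axes start at 0, and in each the 3 shMORC2 libraries lie above the 3 shCtrl libraries.

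Set against the printed 3′ ends, the 6 mRNAs with an incomplete stop codon in the annotated gene had log2 fold changes from -0.25 to 1.10, with a median of 0.52. Of these 6, 4 (MT-ND1, MT-ND3, MT-CO3 and MT-CYB) were called higher and 0 lower, where 19.9% of all genes tested were called higher and 19.6% lower. The call of MT-CO3 was lost with library size counted as the 13 mRNAs (edgeR adjusted p 0.0847). The 7 mRNAs with a whole stop codon in the annotated gene had log2 fold changes from -0.40 to 0.22, with a median of -0.01, and 0 were called higher and 2 (MT-CO1 and MT-ND4L) lower. MT-ATP6 (0.04, not called) was placed among these 7, though its last base is shared with MT-CO3 and its stop may be incomplete after cutting. MT-ND2 and MT-ND4 have an incomplete stop and fitted changes below 0, so the feature and the direction did not coincide in all members. The split was made with the changes known, 13 genes of 1 genome are no independent replicates, and no test was made.

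The tRNAs bring the amino acids to the mitochondrial ribosome, and their levels per length spanned a wide range. In shCtrl, MT-TC (3987 ± 414 RPKM), MT-TY (3460.4 ± 335 RPKM), MT-TN (2866 ± 337 RPKM), MT-TA (2508 ± 294 RPKM) and MT-TK (2438 ± 246 RPKM) were highest. MT-TM (44.8 ± 2.05 RPKM), MT-TQ (45.1 ± 3.49 RPKM) and MT-TI (62.5 ± 8.03 RPKM), which lie in a row after MT-ND1, were lowest. Mature tRNAs have no poly(A) tail, and which precursor or joined RNAs these counts come from was not tested.

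The tRNAs beside the rRNAs and MT-ND1 moved in different directions. MT-TF, for phenylalanine, the first gene of the plus-strand transcript, stood at 4.45, 6.05 and 4.74 CPM in the shCtrl libraries and at 5.68, 13.6 and 10.4 CPM in the shMORC2 libraries. Replicates 2 and 3 of the knockdown lay above all controls and replicate 1 lay among them, so that the groups overlapped, with a log2 fold change of 0.96 (SE 0.24, adjusted p 0.00674 by edgeR). MT-TV, for valine, between the rRNAs, stood at 49.6, 53.7 and 60.9 CPM in the shCtrl libraries and at 25.2, 35.3 and 27.99 CPM in the shMORC2 libraries. It was lower in every knockdown library, with a log2 fold change of -0.89 (SE 0.12, adjusted p 7.02e-05 by edgeR), beside 0.31 for MT-RNR1 upstream and -0.85 for MT-RNR2 downstream. Its ratio to MT-RNR2 per base was 0.0542 ± 0.00200 in shCtrl against 0.0528 ± 0.00208 in shMORC2, and the groups overlapped (exact permutation p 0.4). MT-TL1, for leucine, between MT-RNR2 and MT-ND1, stood at 32.6, 38.04 and 42.04 CPM in the shCtrl libraries and at 49.8, 50.03 and 46.4 CPM in the shMORC2 libraries. It was higher in every knockdown library, with a log2 fold change of 0.38 (SE 0.09, adjusted p 0.00644 by edgeR), a call lost with library size counted as the 13 mRNAs (adjusted p 0.108). Its ratio to MT-ND1 per base went, without overlap, from 0.152 ± 0.0175 to 0.0923 ± 0.00795 (exact permutation p 0.1, the smallest possible).

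The group around MT-CYB carried the other large tRNA changes. MT-TE, for glutamate, lies on the minus strand between MT-ND6 and MT-CYB and stood at 17.3, 17.7 and 16.7 CPM in the shCtrl libraries and at 37.4, 33.9 and 28.2 CPM in the shMORC2 libraries. All knockdown libraries lay above all controls, and the log2 fold change was 0.95 (SE 0.10, adjusted p 1.63e-05 by edgeR). MT-TT, for threonine, directly after MT-CYB on the plus strand, stood at 10.7, 11.3 and 10.3 CPM in the shCtrl libraries and at 6.85, 7.40 and 5.61 CPM in the shMORC2 libraries. It was lower in every knockdown library, opposite to MT-CYB, with a log2 fold change of -0.70 (SE 0.12, adjusted p 0.000589 by edgeR). MT-TP, for proline, next to it on the minus strand, stood at 39.6, 45.7 and 59.1 CPM in the shCtrl libraries and at 31.7, 36.2 and 30.7 CPM in the shMORC2 libraries. The groups did not overlap, and the log2 fold change was -0.55 (SE 0.12, adjusted p 0.00357 by edgeR). Per base, the ratios of MT-TE to MT-CYB, of MT-TP to MT-TT and of MT-TF to MT-RNR1 overlapped between the groups, and so did that of all tRNA counts to all mRNA counts (0.0242 ± 0.00128 in shCtrl against 0.0217 ± 0.00186 in shMORC2, exact permutation p 0.2).

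Other tRNAs were called with smaller changes. MT-TW (tryptophan, 13.6 ± 0.352 CPM in shCtrl against 18.2 ± 0.635 CPM in shMORC2) rose with a log2 fold change of 0.41 (SE 0.09, adjusted p 0.00250 by edgeR), and MT-TK (lysine, 170.4 ± 18.9 CPM in shCtrl against 219 ± 25.4 CPM in shMORC2) rose with 0.36 (SE 0.10, adjusted p 0.0115 by edgeR). The minus-strand pair MT-TC (cysteine, 263 ± 33.6 CPM in shCtrl against 215 ± 5.63 CPM in shMORC2) and MT-TY (tyrosine, 228 ± 27.5 CPM in shCtrl against 180.0 ± 5.20 CPM in shMORC2) fell, with log2 fold changes of -0.29 (SE 0.09, adjusted p 0.0187 by edgeR) and -0.34 (SE 0.09, adjusted p 0.00724 by edgeR). MT-TM (methionine, 3.04 ± 0.206 CPM in shCtrl against 2.16 ± 0.234 CPM in shMORC2) fell with -0.49 (SE 0.17, adjusted p 0.0318 by edgeR), MT-TD (aspartate, 32.6 ± 5.89 CPM in shCtrl against 25.3 ± 3.46 CPM in shMORC2) with -0.37 (SE 0.13, adjusted p 0.0356 by edgeR) and MT-TG (glycine, 24.9 ± 3.59 CPM in shCtrl against 18.8 ± 2.86 CPM in shMORC2) with -0.40 (SE 0.13, adjusted p 0.0214 by edgeR). These last calls were fragile. MT-TM and MT-TG lost theirs when replicate 2 or 3 of shCtrl or of shMORC2 was left out (edgeR adjusted p up to 0.114 and 0.116), MT-TD and MT-TC when shCtrl replicate 3 or shMORC2 replicate 2 or 3 was left out (up to 0.206 and 0.139). MT-TY lost its call without shCtrl replicate 3 (adjusted p 0.0592) and MT-TK without shCtrl replicate 2 (0.0627). With library size counted as the 13 mRNAs the calls of MT-TW (edgeR adjusted p 0.0832), MT-TK (0.141), MT-TC (0.0930) and MT-TM (0.0519) were lost. MT-TM was also not called by DESeq2, nor MT-TD by limma with either pseudocount.

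The other 9 tRNAs were not called in the fit without the block. The log2 fold changes were 0.07 (SE 0.14, adjusted p 0.716) for MT-TI (isoleucine), 0.26 (SE 0.16, adjusted p 0.223) for MT-TQ (glutamine), 0.19 (SE 0.10, adjusted p 0.165) for MT-TR (arginine) and 0.18 (SE 0.08, adjusted p 0.0951) for MT-TS1 (serine). They were -0.18 (SE 0.09, adjusted p 0.136) for MT-TA (alanine), -0.19 (SE 0.09, adjusted p 0.131) for MT-TN (asparagine) and -0.25 (SE 0.10, adjusted p 0.0654) for MT-TH (histidine). For MT-TS2 (serine) and MT-TL2 (leucine) they were -0.16 (SE 0.10, adjusted p 0.236) and -0.05 (SE 0.11, adjusted p 0.747), all adjusted p from edgeR. MT-TA, MT-TN, MT-TH and MT-TS1 passed with the replicate block, at adjusted p 0.0212, 0.0186, 0.0289 and 0.0223. The adjacent tRNAs MT-TH, MT-TS2 and MT-TL2, a run of plus-strand genes between MT-ND4 and MT-ND5, thus stood at log2 fold changes of -0.25, -0.16 and -0.05. MT-ND4 stood at -0.25 and MT-ND5 at -0.01. None of these genes was called without the block, and whether their changes differ from each other was not tested.

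By strand, the summed levels did not separate. The 28 plus-strand genes stood at 82208 ± 5493 CPM in shCtrl against 74452 ± 6122 CPM in shMORC2 (log2 ratio -0.14, exact permutation p 0.3) and the 9 minus-strand genes at 2327 ± 196 CPM in shCtrl against 2407 ± 192 CPM in shMORC2 (log2 ratio 0.05, exact permutation p 0.5, and -0.01 without shMORC2 replicate 1). Their ratio within a library did separate: minus to plus was 0.0279, 0.0281 and 0.0288 in the shCtrl libraries and 0.0323, 0.0324 and 0.0324 in the shMORC2 libraries (exact permutation p 0.1). MT-RNR2 is part of the plus-strand sum and fell. Set against the plus-strand mRNAs alone, with no rRNA, the minus strand overlapped between the groups, at 0.0383, 0.0404 and 0.0403 in the shCtrl libraries and 0.0379, 0.0410 and 0.0399 in the shMORC2 libraries. On the minus strand itself the members went apart, with MT-TE higher and MT-TC, MT-TY and MT-TP lower. The 8 minus-strand tRNAs summed to 1041 ± 127 CPM in shCtrl against 913 ± 19.5 CPM in shMORC2, lower with no overlap (log2 ratio -0.19, exact permutation p 0.1). Without shCtrl replicate 3 this log2 ratio shrank to -0.084. The 14 plus-strand tRNAs summed to 412 ± 30.5 CPM in shCtrl against 436 ± 28.3 CPM in shMORC2, overlapping (log2 ratio 0.08, exact permutation p 0.4).

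The nuclear genes that make and maintain these RNAs were read from the same fit. Over 5 lists (maintenance of mitochondrial DNA, transcription, RNA processing and turnover, modification of tRNA and rRNA, and aminoacyl-tRNA synthetases), 37 of 90 genes were called, which is 41.1% beside the background of 39.5%. Of these 9 were higher and 28 lower, where 19.9% of all genes tested were called higher and 19.6% lower. The median log2 fold change was -0.13 over the 90 genes and -0.01 over all genes tested. The count higher was 16 without shCtrl replicate 1, a fit that called 7898 of 21521 genes tested in either direction. With the replicate block 17 were called higher and 37 lower, where 24.4% of all genes tested were called higher and 24.5% lower under the same block. With library size counted as the 13 mRNAs, 4 were higher and 25 lower, where 12.2% of all genes tested were called higher and 15.8% lower.

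Of 8 genes of mitochondrial transcription, 0 were called higher and 3 lower (37.5% called beside the background of 39.5%). The median log2 fold change was -0.30, and 5 were called without shMORC2 replicate 1, a fit that called 8433 of 21524 genes tested. POLRMT, the RNA polymerase of mitochondria, stood at 101 ± 8.47 CPM in shCtrl against 70.2 ± 7.54 CPM in shMORC2, a log2 fold change of -0.52 (SE 0.09, adjusted p 0.000763 by edgeR). TFB2M, its initiation factor, stood at 17.3 ± 0.859 CPM in shCtrl against 10.7 ± 1.19 CPM in shMORC2, a change of -0.70 (SE 0.11, adjusted p 0.000201 by edgeR). MTERF4, which targets a methyltransferase to the large rRNA, stood at 46.1 ± 2.59 CPM in shCtrl against 29.00 ± 1.33 CPM in shMORC2, a change of -0.67 (SE 0.08, adjusted p 3.52e-05 by edgeR). The elongation factor TEFM (-0.03, adjusted p 0.888) and the termination factor MTERF1 (0.05, adjusted p 0.798) were not called. The calls of POLRMT, TFB2M and MTERF4 held in all 15 alternatives.

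Of 14 genes that maintain mitochondrial DNA, 6 were called (42.9% beside the background of 39.5%), 3 in each direction. In all, 3 were called when shMORC2 replicate 2 or shMORC2 replicate 3 was left out or library size was counted as the 13 mRNAs. TFAM, which packages the DNA and opens its promoters, stood at 72.5 ± 6.15 CPM in shCtrl against 53.7 ± 9.51 CPM in shMORC2, a log2 fold change of -0.43 (SE 0.11, adjusted p 0.00791 by edgeR) that lost its call without shMORC2 replicate 2 or without shMORC2 replicate 3 (adjusted p up to 0.0572). The DNA polymerase accessory subunit POLG2 was at -0.50 (SE 0.10, adjusted p 0.00113) and the topoisomerase TOP1MT at -0.38 (SE 0.08, adjusted p 0.00151) in edgeR. The catalytic subunit POLG (-0.08, SE 0.08, adjusted p 0.425) and the helicase TWNK (-0.09, SE 0.07, adjusted p 0.334) were not called.

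Of 24 genes of RNA processing and turnover, 3 were higher and 7 lower (41.7% called beside the background of 39.5%). LRPPRC, which binds and stabilises mitochondrial mRNAs, stood at 198 ± 3.67 CPM in shCtrl against 146 ± 14.7 CPM in shMORC2, a log2 fold change of -0.44 (SE 0.08, adjusted p 0.00103 by edgeR). Its partner SLIRP stood at 102 ± 8.59 CPM in shCtrl against 118 ± 9.89 CPM in shMORC2 with 0.21 (SE 0.09, adjusted p 0.0703 by edgeR) and was called higher with the block (0.0110), and the poly(A) polymerase MTPAP stood at 15.1 ± 2.17 CPM in shCtrl against 12.4 ± 1.73 CPM in shMORC2 with -0.29 (SE 0.13, adjusted p 0.0909 by edgeR) and was called lower with the block (0.0148). The largest changes of called genes were those of TBRG4 (-0.74, SE 0.08, adjusted p 1.55e-05) and PTCD2 (-0.55, SE 0.13, adjusted p 0.00527), both lower, and PTCD1 (0.46, SE 0.08, adjusted p 0.000466), higher, in edgeR. TBRG4 is a FASTK family protein, and the PTCD proteins carry RNA-binding pentatricopeptide repeats. PTCD2 lay under the RPKM filter of the limma alternatives and was called in the other 13.

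Of 21 genes that modify tRNA and rRNA, 1 was higher and 7 lower (38.1% called beside the background of 39.5%). The pseudouridine synthase RPUSD4, which acts on the large rRNA, stood at 27.1 ± 2.22 CPM in shCtrl against 65.6 ± 5.42 CPM in shMORC2, a log2 fold change of 1.28 (SE 0.09, adjusted p 6.56e-07 by edgeR), the largest among the 90 genes. PUS1, a pseudouridine synthase of tRNAs, was at -0.57 (SE 0.08, adjusted p 0.000185) and MRM1, a methyltransferase of the large rRNA, at -0.55 (SE 0.15, adjusted p 0.0127) in edgeR, the latter losing its call without shMORC2 replicate 2 or without shMORC2 replicate 3 (adjusted p up to 0.0635). Of 23 aminoacyl-tRNA synthetase genes and their partners, 2 were higher and 8 lower (43.5% called beside the same background). MARS2 (-0.99, SE 0.11, adjusted p 1.54e-05), for methionine, and LARS2 (-0.56, SE 0.08, adjusted p 0.000191), for leucine, were lower, and GATB (0.66, SE 0.08, adjusted p 3.56e-05), a subunit of the enzyme that makes glutaminyl-tRNA, was higher, all in edgeR.

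A list of 22 genes that reflect mitochondrial mass was read beside these: 6 were called (27.3% beside the background of 39.5%), 1 higher and 5 lower, with a median log2 fold change of -0.02. Citrate synthase CS (-0.02, adjusted p 0.882), the porin VDAC1 (-0.01, 0.911), the import receptor TOMM20 (0.05, 0.633) and the coactivator PPARGC1A (-0.07, 0.756) were not called by edgeR. The coactivator PPARGC1B (-0.92, SE 0.13, adjusted p 0.000115) and the fusion protein OPA1 (-0.54, SE 0.10, adjusted p 0.000836) were lower and the import receptor TOMM22 (0.67, SE 0.09, adjusted p 0.000128) was higher in edgeR. PPARGC1A and PPARGC1B lay under the RPKM filter of the limma alternatives. These are RNA levels of nuclear genes, and mitochondrial mass and copies of mitochondrial DNA were not measured in these libraries.

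**Figure D5:**
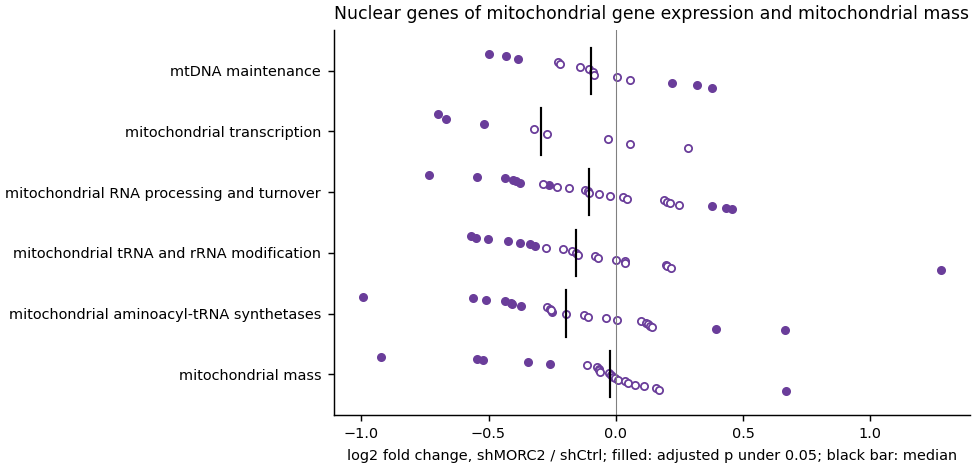
Log2 fold change (shMORC2 over shCtrl, edgeR) of the nuclear genes in 6 lists, 1 point per gene, filled where the adjusted p is under 0.05, with a black bar at the list's median. Medians lie between -0.30 (transcription) and -0.02 (mitochondrial mass); the point farthest right is RPUSD4 at 1.28.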

How the data were processed

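Gene counts were compared between 3 shCtrl and 3 shMORC2 libraries of SW480 cells, grouped by the sample titles. Per gene symbol, the deposited files hold raw read counts and a table of RPKM that the authors computed from those counts by exon length and library total. Per the submitters' processing notes, Trimmomatic 0.36, STAR 2.5.3a, featureCounts (Subread 1.5.1), edgeR 3.12.1 and GRCh38 were used. The annotation release, the strand setting, the treatment of reads with several matches and the collapsing of molecular identifiers were not given in the sources used here. Tables of splicing events, which hold the authors' own comparisons, were not used.

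The whole count table was fitted in edgeR 4.0.16 (R 4.3.3) by quasi-likelihood after filterByExpr and TMM, with no covariate beside the group. P-values were adjusted by Benjamini-Hochberg over the 21005 genes that passed, and an adjusted p under 0.05 was called. SE is the size of the log2 fold change divided by the square root of F. CPM used the TMM-scaled library sizes. Sums, shares and ratios were tested per library with exact two-sided permutation tests. The script was tested on simulated data. Coordinates and strand of all 37 genes equalled those of GENCODE v44 (GRCh38), from whose genome the sequences were read.

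The libraries held 42092664 to 43434425 counts, and the least abundant member had a mean of 111 counts. Deviations from the group means were correlated between libraries of equal replicate number (0.215, 0.111 and 0.102, against -0.156 to 0.0527 for other numbers). Pairing by number was accepted on these values alone, and the labels do not say what a number stands for. The permutation tests and the fit without the block did not use the pairing. The alternatives tried were library size without TMM or without the MT genes, DESeq2 1.42.0, 2 other filters, the replicate block, limma 3.58.1 on log2 RPKM with a pseudocount of 1 or 0.1 (mean RPKM 1 or more), each library left out, and a library size of the 13 mitochondrial mRNAs, which was added after seeing the data.

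The members and lists were chosen with earlier results of these data known. The naming rule took MORC2, all 37 members, 10 regulators and 4 mass genes whatever their result, and in each nuclear list the 3 called genes with the largest change. The gene pairs, the tests of single mRNA shares other than MT-ND6, the split by stop codon, the nuclear copies and the histone genes were added after values were seen.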

Additional observations from a re-analysis of the deposited data

How the results depend on the processing

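The 13-mRNA library size, added after seeing the data, left 13 members called (5 higher) and 4 nuclear genes of mitochondrial gene expression called higher. The block gave 17 such nuclear genes, where 24.4% of all genes tested were called higher. It added calls in 7 members and took none of the 21 away. With 1 library left out, 15 to 24 members were called (8 to 10 higher, 5 to 14 lower), and 29 to 45 nuclear genes (7 to 16 higher, 22 to 36 lower). The calls over all genes tested moved too. They ran from 6268 of 21598 (without shMORC2 replicate 3) to 8433 of 21524 (without shMORC2 replicate 1), beside 8301 of 21005 with all libraries kept. The log2 ratio ran from -0.039 to 0.117 for summed mRNA, from -0.043 to 0.114 for plus-strand mRNA and from -0.015 to 0.121 for the minus strand, with the lowest value of each without shMORC2 replicate 1. For the MT-ATP6 share it ran from -0.048 to 0.0019 (without shCtrl replicate 1).

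Fitted log2 changes near 0 turned sign. MT-ATP8 ran from -0.074 (without shMORC2 replicate 1) to 0.064, and was -0.046 with the 13-mRNA library size. MT-ATP6 ran from -0.055 (without shMORC2 replicate 1) to 0.098, and was -0.022 with the 13-mRNA library size. MT-TL2 ran from -0.108 to 0.033 (without shMORC2 replicate 3), and MT-ND5 from -0.106 to 0.057 (without shMORC2 replicate 3). The cause was not tested. Over the 37 members and 15 alternatives, 492 results kept direction and side of the threshold, 35 lost the call, 18 gained one and 10 turned sign. MORC2 stayed called in all 15. The pairing rests on 3 pairs, for which an exact sign-flip test cannot go below 0.25. MT-TM, MT-TQ and MT-TI, the members with the lowest counts, had under 200 counts a library on average.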
